A study of Mus musculus with 17 samples.

Results

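The genes that encode the subunits of oxidative phosphorylation in the nucleus and in the mitochondrial genome were set against each other across 17 mouse mammary gland RNA-seq libraries. Members were chosen by symbol: mt-Nd, mt-Co, mt-Atp and mt-Cytb for the mitochondrial set, and Ndufa, Ndufb, Ndufc, Ndufs, Ndufv, Uqcr, Atp5, Cox4 to Cox8 and Sdha to Sdhd for the nuclear set, without pseudogenes. This gave 111 genes, 13 mitochondrial and 98 nuclear. The table of the knockout macrophages listed 13 mitochondrial and 86 nuclear members among 19782 genes, that of the macrophages sorted on surface CXCR4 listed 13 and 79 among 17130, and that of the cultured macrophages listed 13 and 84 among 18818. The table of the mammary basal cells listed 90 nuclear members among 26584 genes, and its mitochondrial genes are not analysed here. By complex, the nuclear members comprised 37 subunits of complex I, 4 of complex II, 8 of complex III, 18 of complex IV and 18 of ATP synthase (complex V). The symbol prefixes also took in 8 assembly factors of complex I (Ndufaf) and 5 genes that are not counted here as subunits (Cox4nb, Atp5s, Atp5sl, Ndufa4l2 and Cox7a2l). The mitochondrial members comprised 7 subunits of complex I, 1 of complex III, 3 of complex IV and 2 of complex V.

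Oxidative phosphorylation passes electrons from NADH and succinate through complexes I to IV to oxygen and uses the proton gradient so built to make ATP in complex V. Complexes I, III, IV and V are each assembled from subunits of both genomes, whereas complex II (succinate dehydrogenase) is encoded by the nucleus alone. The mitochondrial genes are transcribed as long polycistronic RNAs from either strand and cut apart, while each nuclear gene has its own promoter, so that the RNA levels of the sets are under separate control. In macrophages, the balance between oxidative phosphorylation and glycolysis is known to differ between activation states.

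All macrophages were sorted from the mammary glands of virgin mice on F4/80 and CD11b. Macrophages of Cxcr4 knockout mice came from LysmCre+, Cxcr4fl/fl mice (2 libraries), in which Cre is driven by the lysozyme gene that is active in myeloid cells, and were compared with LysmCre+ mice (2 libraries). Macrophages of Cxcl12 knockout mice (K8Cre+, Cxcl12fl/fl, 2 libraries) were compared with those of K8Cre+ mice (2 libraries). The keratin 8 promoter drives Cre in luminal epithelium, so that deletion of Cxcl12 was not directed at the sequenced macrophages. Wild-type macrophages were further sorted as CXCR4+ (2 libraries) and CXCR4- (1 library). Wild-type macrophages were also cultured untreated, with recombinant CXCL12, with the AKT inhibitor GSK690693, or with both agents (1 library each). Lin-CD24+CD29hi basal cells, enriched for mammary stem cells and called P4, came from 1 K8Cre+, Cxcl12fl/fl and 1 K8Cre+ library. The genotype field gives this P4 control as K8Cre+, although its title calls it wild type. Ages and numbers of mice were not given in the labels. No label states that the repeats came from separate animals, so that p-values measure only the spread between these libraries, which may be technical. That spread was largely pooled over genes of like level, and in the sort wholly so.

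The macrophage tables were deposited as log2 CPM (reads of a gene scaled to a common total per library) and the P4 table as FPKM, and the tables were normalised separately. The steps between low values placed the depth of the macrophage libraries at about 8602148 to 37230179 reads, with the lowest in repeat 1 of the K8Cre+ control, and depth is unknown for the P4 table. Cxcr4 itself stood at 232 and 140.4 CPM in the Cxcr4 knockout macrophages and at 819 and 318 CPM in the LysmCre+ controls. It stood at 632 and 875 CPM in the CXCR4+ libraries and at 772 CPM in the CXCR4- library, a value between them, so that its RNA did not follow the sort label. The 6 macrophage markers (Adgre1, Itgam, Csf1r, Cd68, Mertk and Ptprc) were all detected, with summed levels of 2506 to 4665 CPM in the freshly sorted macrophages and 1111 to 1235 CPM in culture. All 3 endothelial markers (Pecam1, Cdh5 and Kdr) were detected in culture, where they summed to 1291 to 1696 CPM, against 0.7 to 152 CPM in the freshly sorted libraries. The part of endothelial RNA in the culture values was not tested.

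The sequences of the mitochondrial members bear on how their levels can be read, because 9 of the 13 have near-identical copies in the nuclear genome (at least 95% identity to an annotated pseudogene in GENCODE M21, GRCm38). The longest series of copies lies on chromosome 1 within chr1:24611535-24616197, where 7 neighbouring pseudogenes match mt-Nd4, mt-Nd4l, mt-Nd3, mt-Co3, mt-Atp6, mt-Co2 and mt-Co1. Of these, 5 were identical to their mitochondrial gene over 294 to 876 bases, and the copies of mt-Nd3 and mt-Co1 were 99.7% and 99.8% identical. A stretch of 90 bases of mt-Co2, which encodes the copper-binding subunit 2 of cytochrome c oxidase, is shown with its chromosome 1 copy Gm28661 and its chromosome 2 copy Gm13341. The stretches lie at chrM:7457-7546 on the plus strand, chr1:24615032-24615121 on the minus strand and chr2:22587441-22587530 on the minus strand, and capitals mark the bases at which mt-Co2 and Gm13341 differ.
mt-Co2: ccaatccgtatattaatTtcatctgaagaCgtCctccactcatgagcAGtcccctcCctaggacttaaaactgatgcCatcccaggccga
Gm28661: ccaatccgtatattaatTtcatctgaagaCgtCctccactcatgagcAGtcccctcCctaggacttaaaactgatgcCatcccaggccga
Gm13341: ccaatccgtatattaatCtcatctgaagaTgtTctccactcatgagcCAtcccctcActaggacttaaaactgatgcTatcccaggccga
mt-Co2 and Gm28661 had no difference over 681 aligned bases, so that a read from either gene maps equally well to both. Gm13341 differed from mt-Co2 at 7 bases in this stretch and at 16 bases over the whole gene, with 12 gap bases (95.9% identity). The copy of mt-Nd3, a small core subunit of complex I, carried 1 difference, which is in capitals in the next pair (chrM:9459-9548, plus strand, and chr1:24613030-24613119, minus strand).
mt-Nd3: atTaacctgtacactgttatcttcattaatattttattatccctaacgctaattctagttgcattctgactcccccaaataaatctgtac
Gm28438: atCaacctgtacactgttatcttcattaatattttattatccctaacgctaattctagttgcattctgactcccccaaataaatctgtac

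Reads were listed under both the mitochondrial genes and these copies, in proportions that differed between tables. How the counting divided reads between them was not tested. The copies held 27.9% to 38.0% of the summed CPM of mitochondrial genes plus copies in the knockout table, 33.9% to 36.0% in the sort table and 11.4% to 15.6% in the culture table. In repeat 2 of the K8Cre+ control, mt-Co2 stood at 6239 CPM and Gm28661 at 6244 CPM, the highest pair of values in the knockout table. The median share of the copy in the knockout table was 50% for mt-Co3, 51.5% for mt-Atp6, 55.2% for mt-Co2, 62.1% for mt-Nd4l, 49.6% for mt-Nd3, 36.3% for mt-Nd4 and 26.8% for mt-Co1. In the culture table it was 43.5% for mt-Co3 and 47.3% for mt-Atp6 but 26.0% for mt-Co2, 21.6% for mt-Nd4l, 1.4% for mt-Nd3, 0.2% for mt-Nd4 and 0.0% for mt-Co1. For mt-Co3 the share ran from 46.7% to 51.2% over the freshly sorted libraries and from 30.5% to 50.01% in culture, and for mt-Atp6 from 39.8% to 54.8% freshly sorted and from 39.6% to 54.7% in culture. For mt-Co1, mt-Co2, mt-Nd3 and mt-Nd4 every culture library lay below every freshly sorted one. The share of the mt-Nd4l copy was 13.4% untreated, 19.7% with CXCL12, 23.4% with the AKT inhibitor and 61.8% with both agents, the last within its range of 55.5% to 62.2% in the freshly sorted libraries. No copy on chromosome 1 is annotated for 6 members (mt-Nd1, mt-Nd2, mt-Nd5, mt-Nd6, mt-Cytb and mt-Atp8). Among nuclear members, 20 of 86 had annotated copies that passed the same criteria, and those listed held 1.37% to 4.52% of the summed CPM of nuclear members and their copies in the knockout table.

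**Figure D1:**
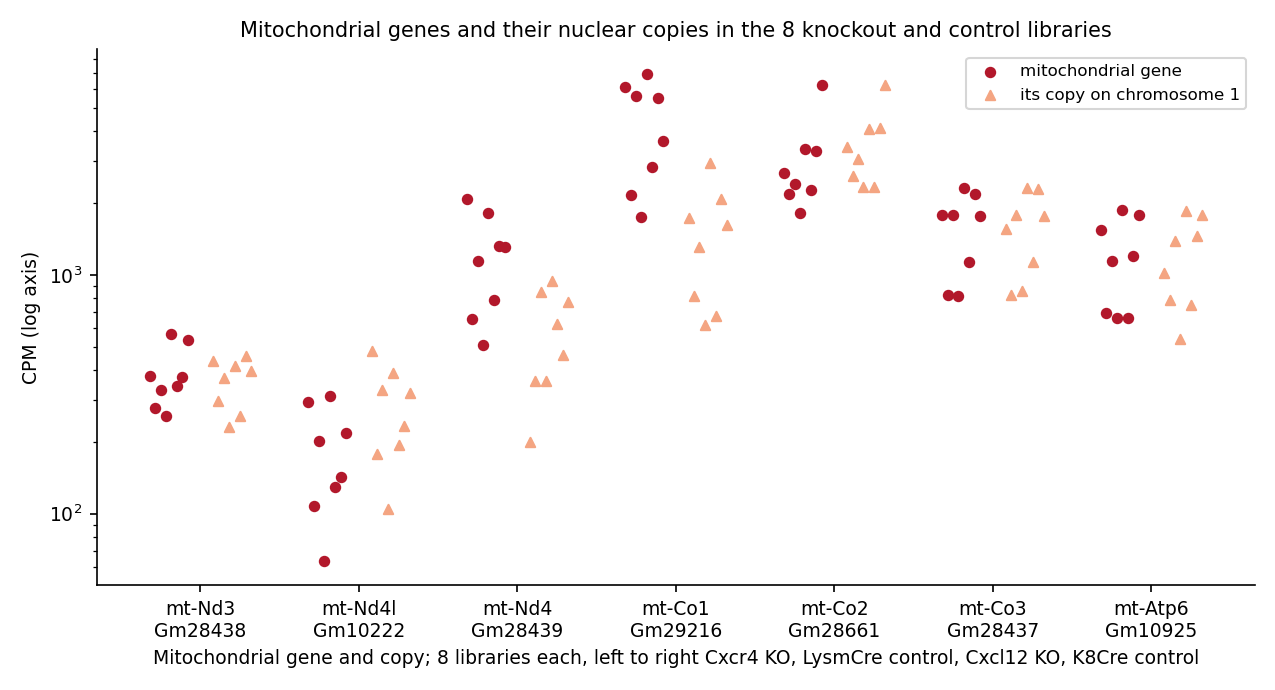
Level of each of the 7 mitochondrial genes with a chromosome 1 copy (circles) and of that copy (triangles), in CPM on a log axis, in the 8 libraries of the knockout table; each point is 1 library, and within a gene they run from left to right through the Cxcr4 knockout, the LysmCre+ control, the Cxcl12 knockout and the K8Cre+ control. Gene and copy lie at like levels for mt-Nd3, mt-Co2, mt-Co3 and mt-Atp6, and the copy lies lower for mt-Nd4 and mt-Co1, where its median share was 36.3% and 26.8%.

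The mitochondrial set outweighed the nuclear set in all 15 macrophage libraries, by 3.78-fold to 23.7-fold in summed CPM. The 13 mitochondrial genes held 2.30 and 1.01% of all CPM in the Cxcr4 knockout libraries and 1.92 and 0.842% in their controls. They held 2.58 and 1.20% in the Cxcl12 knockout libraries and 2.07 and 2.10% in their controls. In these pairs the first value is repeat 1, and it was at least 2-fold above repeat 2 in every group but the K8Cre+ control. In the sort, they held 1.31 and 1.13% in CXCR4+ and 1.14% in CXCR4- macrophages. In culture they held 2.32% untreated, 3.01% with CXCL12, 3.26% with the AKT inhibitor and 3.04% with both. In these bulk samples, fewer cells of a type and less RNA per cell cannot be told apart.

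The nuclear set varied over a narrower range. It held 0.279 and 0.215% in the Cxcr4 knockout libraries against 0.306 and 0.223% in their controls, and 0.245 and 0.230% in the Cxcl12 knockout libraries against 0.265 and 0.235% in theirs. CXCR4+ macrophages gave 0.162 and 0.186% and the CXCR4- library 0.214%. The culture libraries gave 0.130%, 0.140%, 0.139% and 0.128% in the order untreated, CXCL12, inhibitor and both. The freshly sorted and the cultured libraries did not overlap in the nuclear share. They stand in separately normalised tables with different rows, so that this gap cannot be told apart from a difference in counting.

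**Figure D2:**
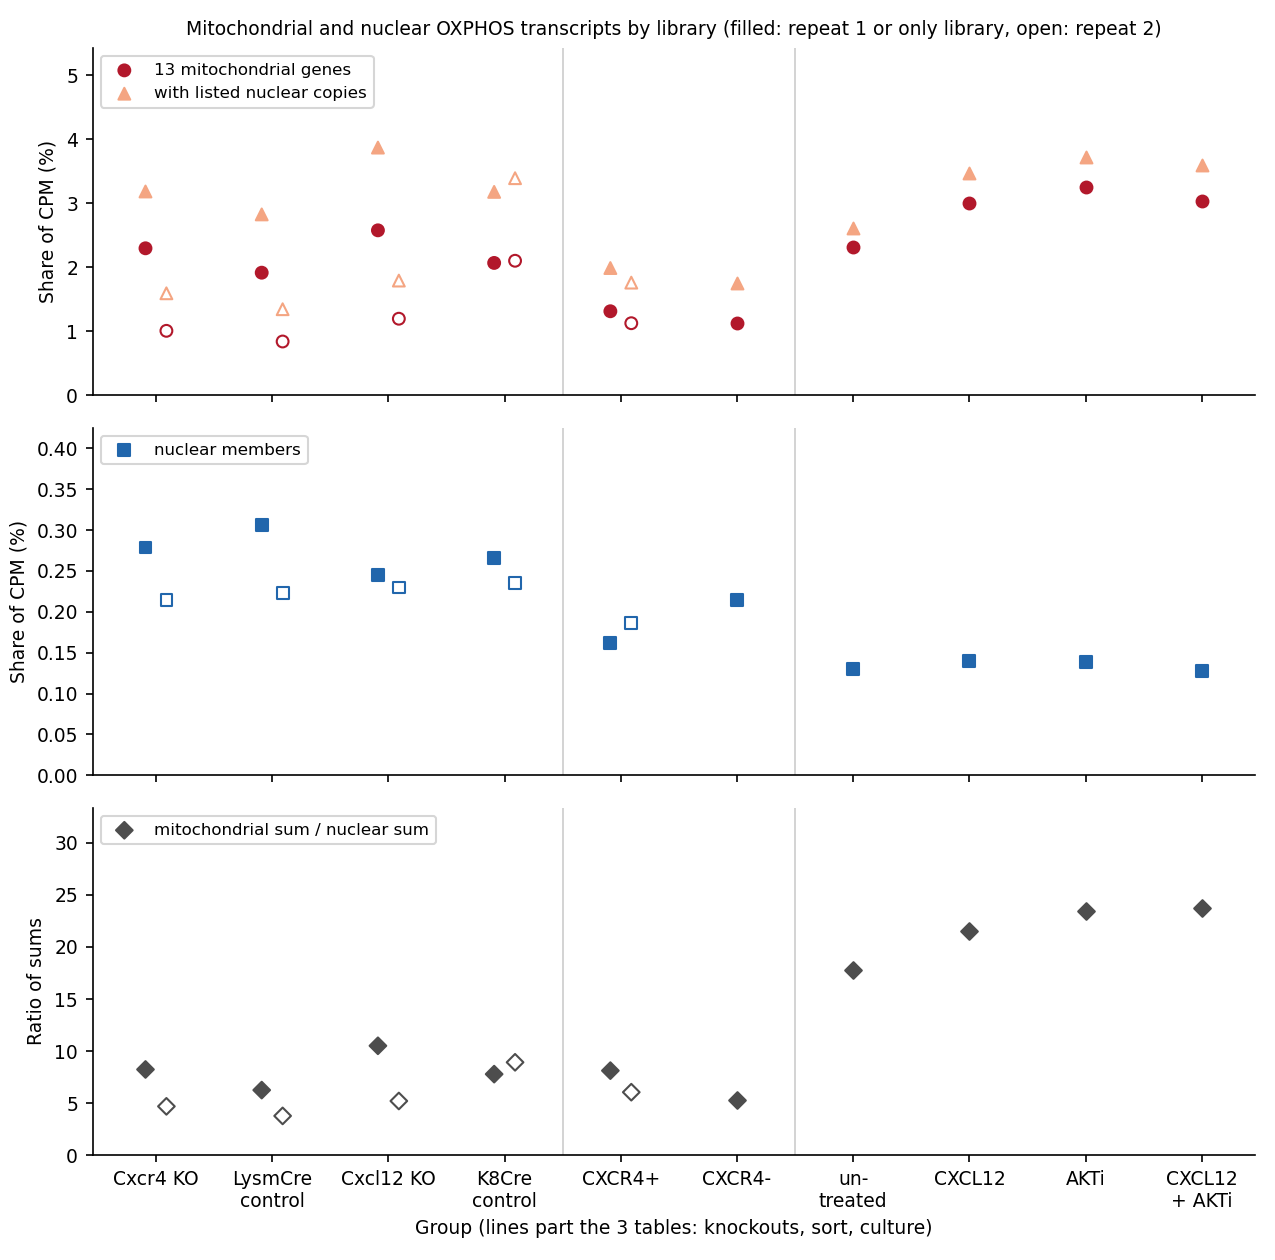
Summed level of the 13 mitochondrial genes alone and with their listed nuclear copies (top), summed level of the nuclear members (middle), both in percent of all CPM, and the ratio of the mitochondrial to the nuclear sum (bottom), for each of the 15 macrophage libraries (1 point per library, filled for repeat 1 or an only library and open for repeat 2). The ratio ran from 3.78 in repeat 2 of the LysmCre+ control to 23.7 with CXCL12 and the AKT inhibitor, and the 4 culture libraries lay above all freshly sorted ones.

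The ratio of mitochondrial to nuclear summed CPM was 8.24 and 4.70 in the Cxcr4 knockout against 6.26 and 3.78 in its control. It was 10.5 and 5.21 in the Cxcl12 knockout against 7.79 and 8.93 in its control, and 8.13 and 6.06 in CXCR4+ against 5.31 in CXCR4- macrophages. On the log2 scale, the Cxcr4 knockout averaged 2.64 ± 0.57 and its control 2.28 ± 0.51 (SD, n = 2 each), a difference of 0.35 that was smaller than the pooled SD of 0.54. The Cxcl12 knockout averaged 2.89 ± 0.72 and its control 3.06 ± 0.14 (SD, n = 2 each), a difference of -0.17 against a pooled SD of 0.52. Within repeats the Cxcl12 knockout difference was 0.43 in repeat 1 and -0.78 in repeat 2, and without repeat 2 of the Cxcl12 knockout it was 0.33. The Cxcr4 knockout difference was 0.40 in repeat 1 and 0.31 in repeat 2, but it was -0.05 without repeat 1 of the knockout, -0.01 without repeat 2 of the control and -0.02 as a difference of mean log2 values. CXCR4+ macrophages averaged 2.81 ± 0.30 (SD, n = 2) and the CXCR4- library stood at 2.41, a difference of 0.40 that was 0.19 without CXCR4+ repeat 1. These sums are descriptions and were not tested.

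The share of small non-coding RNA was lower in repeat 1 than in repeat 2 in all 4 groups of the knockout table, while the mitochondrial share was higher in repeat 1 in every group but the K8Cre+ control. Small non-coding RNA made up 5.0 and 17.9% of CPM in the Cxcr4 knockout, 5.20 and 19.3% in the LysmCre+ control, 2.96 and 17.7% in the Cxcl12 knockout and 6.75 and 15.2% in the K8Cre+ control. Its part in the mitochondrial values was not tested.

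Levels were taken per kilobase of annotated exon, with all exons of a gene joined. By the median CPM per kilobase over 8 libraries, the mitochondrial genes formed a ladder within the knockout table. It ran from mt-Co2 at 3710.0, mt-Co1 (the catalytic haem and copper subunit of complex IV) at 2948 and mt-Atp8 (a small membrane subunit of ATP synthase) at 2942 through mt-Co3 at 2263, mt-Atp6 (the proton channel subunit) at 1714 and mt-Nd1 at 1609. Below these stood mt-Nd3 at 1029.8, mt-Nd2 at 917, mt-Nd4 at 890.4, mt-Nd5 at 863, mt-Cytb (cytochrome b of complex III) at 725, mt-Nd6 at 634 and mt-Nd4l at 578. All genes named Nd encode core subunits of the membrane arm of complex I, and mt-Nd6 is the member read from the other strand. Library ranges overlapped between neighbours: mt-Co2 spanned 2653 to 9121 and mt-Co1 1132 to 4503 CPM per kilobase. With the chromosome 1 copies added, mt-Co2 stood at 8466, mt-Co3 at 4385, mt-Co1 at 3937 and mt-Nd4l at 1529, so that mt-Nd4l left the lowest place. Annotated neighbours overlap by 43 bases (mt-Atp8 and mt-Atp6), 7 bases (mt-Nd4l and mt-Nd4) and 14 bases on opposite strands (mt-Nd5 and mt-Nd6), and reads in those bases are uncertain.

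The nuclear members stood far lower per kilobase. Their joined exons can be longer than a single transcript (6883 bases for Ndufab1), which would lower these values by an unknown amount. The median over genes was 4.8 CPM per kilobase for complex I, 12.6 for complex II, 16.7 for complex III, 9.0 for complex IV, 12.7 for complex V and 0.7 for the complex I assembly factors in the knockout table. In summed CPM the leading genes were Atp5b (the catalytic beta subunit of ATP synthase), Cox7a2l (a supercomplex assembly factor) and Atp5a1 (the alpha subunit), which together held 23.6% to 35.6% of the nuclear sum in the knockout libraries. Atp5b stood at 385 and 199.8 CPM in the Cxcr4 knockout, 571 and 193 CPM in its control, 282 and 238 CPM in the Cxcl12 knockout and 238 and 239 CPM in its control. Repeat 1 of the LysmCre+ control and of the Cxcr4 knockout were high, and the other 6 libraries lay close together. For the further complexes the leading genes were Cox5a and Cox4i1 of complex IV, Sdhd and Sdha of complex II (the membrane anchor and the flavoprotein), Uqcrh and Uqcrc1 of complex III, and Ndufb5 and Ndufs1 of complex I. Cox5a stood at 68.9 and 172 CPM in the Cxcr4 knockout against 69.9 and 155 CPM in its control, and at 105 and 133 CPM in the Cxcl12 knockout against 115 and 172 CPM in its control. In every group its repeat 2 was the higher. Sdha stood at 85.6 and 84.7 CPM in the Cxcr4 knockout against 24.6 and 51.0 CPM in its control, and at 85.4 and 75.6 CPM in the Cxcl12 knockout against 62.7 and 66.5 CPM in its control. Sdhd stood at 51.0 and 60.8 CPM in the Cxcr4 knockout against 94.4 and 68.9 CPM in its control, and at 84.4 and 49.3 CPM in the Cxcl12 knockout against 135 and 64.2 CPM in its control. Uqcrc1, a core protein of complex III, stood at 96.5 and 49.8 CPM in the Cxcr4 knockout against 28.3 and 90.5 CPM in its control, and at 76.5 and 55.0 CPM in the Cxcl12 knockout against 34.4 and 72.5 CPM in its control. The hinge protein Uqcrh, which binds cytochrome c1, stood at 102 and 47.9 CPM in the Cxcr4 knockout against 116 and 43.0 CPM in its control, and at 58.5 and 58.9 CPM in the Cxcl12 knockout against 75.1 and 60.6 CPM in its control. Ndufb5 of the complex I membrane arm stood at 94.6 and 42.1 CPM in the Cxcr4 knockout against 133 and 3.82 CPM in its control, and at 31.8 and 38.6 CPM in the Cxcl12 knockout against 62.2 and 42.2 CPM in its control.

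Many nuclear members were present in one repeat and missing in the other. Of the 86 in the knockout table, 38 were at 0 in at least 1 of the 8 libraries. These had a median length of joined exons of 1291 bases and a median mean level of 5.30 CPM. The 48 never at 0 had 1928 bases and 24.1 CPM. The K8Cre+ control repeat 1 had 31 nuclear members at 0, against 1 in repeat 2, and 14 of those 31 were at 5 CPM or more in repeat 2. The limit that 0 reads allows in that library is 0.349 CPM (3 reads, counting error only). The other libraries had 14 and 1 members at 0 (Cxcr4 knockout), 14 and 6 (LysmCre+ control) and 8 and 0 (Cxcl12 knockout). Over all 19782 genes, the share at 0 was 36.8 and 8.16% in the K8Cre+ control and 24.9 and 10.3% in the Cxcr4 knockout. It was 30.3 and 19.3% in the LysmCre+ control and 13.6 and 7.98% in the Cxcl12 knockout. Zeros were thus not particular to the nuclear members. No mitochondrial gene was at 0 in any macrophage library.

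In the nuclear set, repeats of one group differed in both directions. In the Cxcr4 knockout, its control and the Cxcl12 knockout they differed as a block in the mitochondrial set. Among members of at least 10 CPM, the median absolute log2 difference between repeats was 1.33 for mitochondrial and 1.16 for nuclear genes in the Cxcr4 knockout, and 1.19 and 1.57 in its control. It was 1.10 and 0.53 in the Cxcl12 knockout and 0.51 and 1.37 in the K8Cre+ control. In CXCR4+ macrophages it was 0.23 and 0.50. Over all genes of that level it was 1.04 in the Cxcr4 knockout, 1.33 in its control and 0.56 in the Cxcl12 knockout. It was 1.29 in the K8Cre+ control and 0.43 in CXCR4+ macrophages. The nuclear spread thus lay near that of all genes. All 13 mitochondrial genes were higher in repeat 1 in the Cxcr4 knockout, its control and the Cxcl12 knockout. In the K8Cre+ control 8 of 13 were, and in CXCR4+ macrophages 10 of 13. Of the nuclear members, 43 of 59 were higher in repeat 1 in the Cxcr4 knockout, 34 of 58 in its control and 35 of 60 in the Cxcl12 knockout. In the K8Cre+ control 25 of 50 nuclear members were, and in CXCR4+ macrophages 15 of 47. The nuclear median of repeat 1 minus repeat 2 was 0.92 in the Cxcr4 knockout and 0.59 in its control, against 0.21 over all genes in each. Over genes, log2 levels of repeats correlated at a Pearson r of 0.91 to 0.98 for the mitochondrial set (13 genes) and 0.59 to 0.79 for the nuclear set, as a description over genes that share each library.

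**Figure D3:**
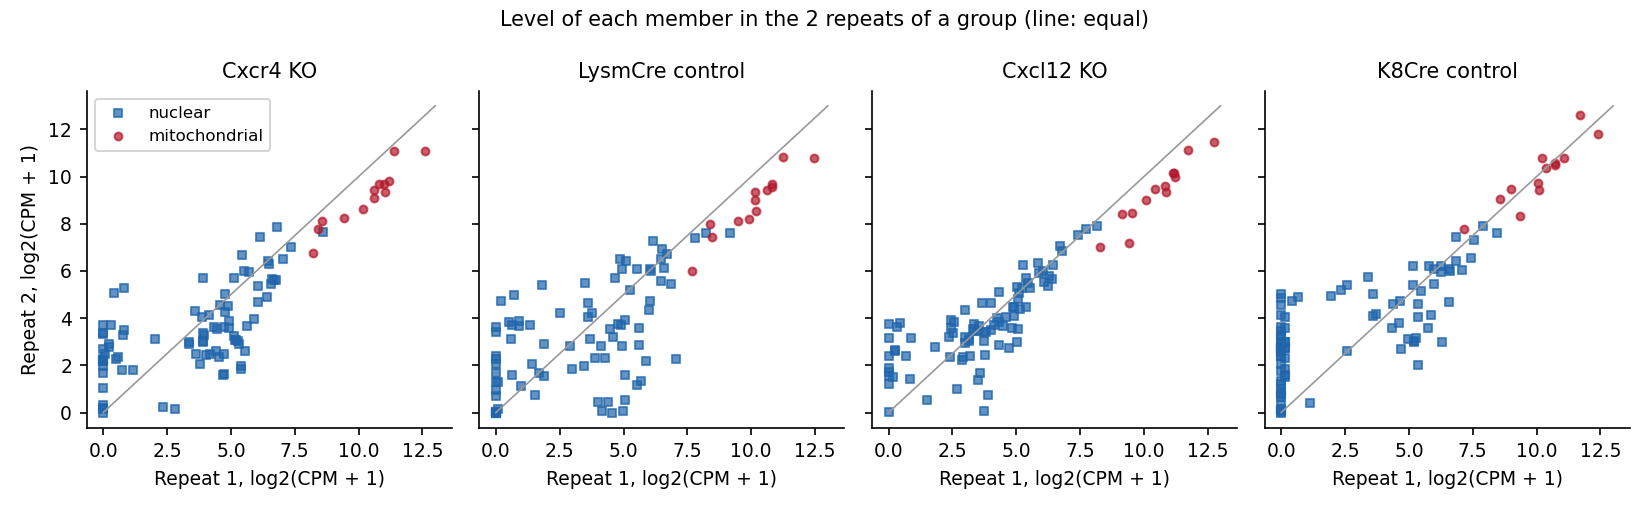
Level of each member in repeat 1 (horizontal) and repeat 2 (vertical), as log2(CPM + 1), for the 4 groups of the knockout table; mitochondrial and nuclear genes are in different colours and the line marks equality. The mitochondrial genes lie below the line as a band in the Cxcr4 knockout, its control and the Cxcl12 knockout, while nuclear genes scatter to either side and many sit on an axis at 0.

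The loss of Cxcr4 in myeloid cells was compared with the LysmCre+ control, which addresses the part of the receptor in mammary macrophages. The lysozyme gene Lyz2 stood at 67.4 and 51.7 CPM in the knockout and at 10226 and 2780 CPM in the control. The groups thus differed in Lyz2 as well as in Cxcr4, and the part of each cannot be told apart. None of 13 mitochondrial and 82 nuclear members tested passed the adjusted p threshold of 0.05 (limma on log2(CPM + 1) with Benjamini-Hochberg adjustment), against 0.00579% of all 17275 genes, a single gene. At an unadjusted p under 0.05 there were 0 mitochondrial and 3 nuclear members (all higher in the knockout), against 374 higher and 201 lower genes overall. The median log2 difference was 0.26 for the mitochondrial set, 0.10 for the nuclear set and 0.14 for all genes. All 13 mitochondrial differences lay above 0 (11 to 13 did under other scalings), from 0.01 for mt-Co3 to 0.65 for mt-Nd4l, and the nuclear median was -0.05 after quantile normalization. The set's median was 0.26 in repeat 1 and 0.28 in repeat 2, but it was -0.32 without repeat 1 of the knockout, -0.29 without repeat 2 of the control, 0.97 without repeat 2 of the knockout and 0.91 without repeat 1 of the control.

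Among the single mitochondrial genes, mt-Nd4 stood at 2069 and 653 CPM in the Cxcr4 knockout and 1146 and 511 CPM in its control, a log2 difference of 0.60 (SE 0.43). Its copy Gm28439 stood at 199.9 and 360.3 CPM in the knockout and 847 and 361 CPM in the control. Together, mt-Nd4 and its copy stood at 2268 and 1013 CPM in the knockout and 1994 and 872 CPM in the control, closer together than mt-Nd4 alone. mt-Co1 stood at 6136 and 2161 CPM in the knockout and 5606 and 1748 CPM in the control (0.22, SE 0.40). For both genes the groups overlapped, with repeat 1 of either group above repeat 2 of the other. Cytochrome b (mt-Cytb) stood at 1162 and 391 CPM in the knockout and 972 and 294 CPM in the control (0.33, SE 0.47). The remaining differences were 0.47 for mt-Nd2, 0.33 for mt-Nd5, 0.32 for mt-Nd1, 0.26 for mt-Atp6, 0.21 for mt-Co2, 0.15 for mt-Nd3, 0.14 for mt-Nd6 and 0.06 for mt-Atp8.

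In the nuclear set, 47 differences lay above and 35 below 0, against 9827 above and 7299 below 0 over all 17275 genes. Here and in the other comparisons, the members named as highest or lowest are drawn from those whose mean reached 10 CPM, or 10 FPKM in P4 cells, on one side of the comparison. Ndufs1, an iron-sulphur subunit of complex I, stood at 66.1 and 40.3 CPM in the Cxcr4 knockout and 0.141 and 25.2 CPM in its control. The control repeats lay far apart, and the log2 difference of 3.27 (SE 1.24) was made of 5.88 in repeat 1 and 0.66 in repeat 2. Cox8a, a small complex IV subunit, stood at 83.4 and 28.5 CPM in the knockout and 1.55 and 12.3 CPM in the control. The supernumerary complex I subunit Ndufa6 stood at 24.6 and 1.97 CPM in the knockout and 0.0707 and 0.0993 CPM in the control. Cox6a1 of complex IV stood at 14.1 and 9.44 CPM in the knockout and 1.93 and 0.695 CPM in the control. The assembly factor Ndufaf1 stood at 20.7 and 10.7 CPM in the knockout and 0.0707 and 1.44 CPM in the control. In each of these genes both knockout libraries lay above both controls. They were picked by their difference between these same libraries, so that this order follows in part from the choice. In Ndufs1, Ndufa6 and Ndufaf1 repeat 1 of the control lay under the level of 3 reads (0.212 CPM), so that the size of the difference depends on the pseudocount. Without repeat 2 of the control, Ndufs1 passed the threshold (log2 difference 5.53, adjusted p = 0.0179 by limma, against 0.679 to 1 in the other settings). That fit leaves the single control library in which Ndufs1 was under 3 reads, assumes that it varies like the other groups, and calls 150 of 16956 genes, against 1 with all libraries.

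Toward the low end, Ndufa13, a supernumerary complex I subunit also known as GRIM-19, stood at 0.772 and 10.3 CPM in the Cxcr4 knockout and 32.4 and 13.98 CPM in its control (-2.32, SE 1.75). The succinate dehydrogenase anchor Sdhc stood at 0.238 and 12.3 CPM in the knockout and 58.6 and 3.48 CPM in the control. Atp5k, a subunit of the ATP synthase dimer interface, stood at 0 and 2.15 CPM in the knockout and 31.9 and 0.447 CPM in the control. The assembly factor Ndufaf6 stood at 0.0594 and 4.50 CPM in the knockout and 32.1 and 1.99 CPM in the control. In these low genes the groups overlapped in all but Ndufa13, and in each the knockout repeat 1 was the lowest library. The catalytic subunit Atp5a1 stood at 163 and 129 CPM in the knockout and 222 and 169 CPM in the control (-0.41, SE 0.56).

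**Figure D4:**
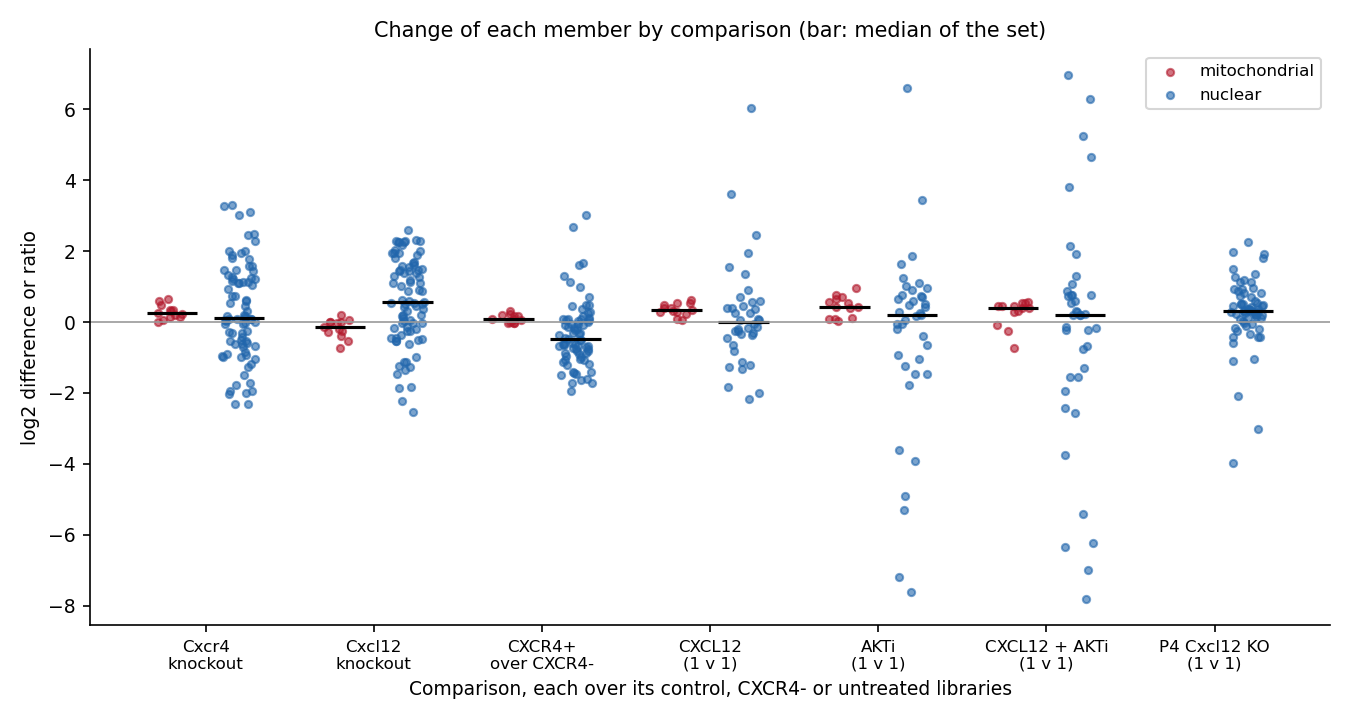
Log2 difference of every tested member in the Cxcr4 knockout, the Cxcl12 knockout and the CXCR4 sort (knockout minus control, CXCR4+ minus CXCR4-), and log2 ratio of every member that reached 10 CPM or FPKM in the comparisons of 1 library with 1 (culture treatments over untreated, P4 knockout over control); each point is a gene, with mitochondrial and nuclear members apart, and the bar is the median. In the first 3 comparisons the mitochondrial genes lie in narrow bands (medians 0.26, -0.14 and 0.08) and the nuclear genes spread from -2.53 to 3.30, and in culture some nuclear genes that are near 0 in 1 library lie further out.

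The deletion of Cxcl12 from luminal cells was set against the K8Cre+ control and addresses the loss of the epithelial ligand, as read out in macrophages. Again none of 13 mitochondrial and 82 nuclear members passed the adjusted p threshold (limma, Benjamini-Hochberg), beside 0% of all genes. At an unadjusted p under 0.05 there was no member in either set, against 415 higher and 76 lower genes overall. The median log2 difference was -0.14 in the mitochondrial set (0.01 after quantile normalization), 0.56 in the nuclear set and 0.36 over all genes. The mitochondrial median changed sign with the repeat, at 0.40 in repeat 1 with all 13 genes above 0 and at -0.64 in repeat 2 with none above 0. It was 0.47 without repeat 2 of the Cxcl12 knockout and -0.75 without its repeat 1. The nuclear median was 0.58 in repeat 1 and 0.13 in repeat 2, and it was 0.02 without the K8Cre+ control repeat 1, the library with 31 members at 0.

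mt-Co2 was the mitochondrial gene with the lowest difference, at -0.72 (SE 0.37), with 3362 and 2256 CPM in the Cxcl12 knockout and 3292 and 6239 CPM in its control. The groups did not separate, since repeat 1 of the knockout lay between the control libraries. Its copy Gm28661 stood at 4071 and 2335 CPM in the knockout and 4123 and 6244 CPM in the control. mt-Nd1 stood at 2255 and 1131 CPM in the knockout and 1703 and 1514 CPM in the control (-0.01, SE 0.42). mt-Co1 gave -0.01, mt-Co3 -0.28, mt-Cytb -0.21, mt-Atp6 -0.40, mt-Atp8 -0.25, mt-Nd2 0.06, mt-Nd3 -0.02, mt-Nd4 -0.14, mt-Nd4l 0.20, mt-Nd5 -0.0042 and mt-Nd6 -0.55.

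Of the nuclear differences, 55 lay above and 27 below 0, against 11081 above and 6166 below 0 over all 17275 genes. Sdhc stood at 28.7 and 21.5 CPM in the Cxcl12 knockout and 0.116 and 15.6 CPM in its control (2.59, SE 1.74). Ndufv3, a small subunit of the NADH-oxidising module, stood at 19.3 and 6.21 CPM in the knockout and 0 and 4.83 CPM in the control. Ndufab1, the mitochondrial acyl carrier protein that is also a complex I subunit, stood at 19.3 and 13.2 CPM in the knockout and 0 and 11.5 CPM in the control. Cox7c of complex IV stood at 24.9 and 5.59 CPM in the knockout and 0 and 6.11 CPM in the control, and the complex I subunit Ndufb2 at 10.7 and 11.8 CPM in the knockout and 0 and 5.24 CPM in the control. The control repeat 1 was the low library in these genes. At the low end stood the core complex I subunit Ndufs3, with 0.354 and 12.8 CPM in the knockout and 76.6 and 7.03 CPM in the control (-2.53, SE 1.45). Ndufa9, an accessory complex I subunit, stood at 0.267 and 11.5 CPM in the knockout and 38.2 and 7.93 CPM in the control. Cox6a1, which stood among the highest in the Cxcr4 knockout, was among the lowest here at -1.86 (SE 1.75), together with Cox7a2 at -1.83 and Ndufa4, a subunit of complex IV despite its name, at -1.47.

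The difference between the knockouts was tested in the same fit as an interaction. No member passed (limma, Benjamini-Hochberg), beside 0.00579% of all genes. At an unadjusted p under 0.05 there were 0 mitochondrial and 3 nuclear members (1 higher in the Cxcr4 contrast and 2 lower), against 165 higher and 263 lower of 17275 genes overall. Cox6a1 gave the highest nuclear difference (4.36, SE 2.48), with 4.18 and 8.23 CPM in the Cxcl12 knockout and 52.3 and 10.9 CPM in its control beside the Cxcr4 values above. Next came Ndufa9 (4.12), Cox7a2 (3.62), Ndufb6 (3.28) and Ndufc2 (3.13). Among the lowest were Sdhc (-4.60, SE 2.47), Ndufaf4 (-3.82), Ndufaf6 (-3.72) and Ndufa13 (-3.70). In the K8Cre+ control repeat 1, Cox6a1, Cox7a2 and Ndufa9 were high and Sdhc and Ndufa13 were low against repeat 2. All 13 mitochondrial differences were above 0 with a median of 0.41, against -0.34 in the nuclear set and -0.22 over all genes. Of all 17275 genes, 7545 lay above 0. Without one library at a time the mitochondrial median ranged from -0.28 to 1.07, with values below 0 when repeat 2 of the LysmCre+ control (-0.28), repeat 1 of the Cxcr4 knockout (-0.26) or repeat 2 of the Cxcl12 knockout (-0.18) was left out.

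The CXCR4 sort compared wild-type macrophages with and without the receptor on their surface. Of the macrophage markers, Csf1r stood at 1483 and 1491 CPM in CXCR4+ and 467 CPM in CXCR4- macrophages. Adgre1 stood at 1041 and 1429 CPM in CXCR4+ and 558 CPM in CXCR4- macrophages, and Itgam at 285 and 330 CPM against 305 CPM. The part of cell composition in the values of the sort was not tested. No mitochondrial or nuclear member passed the adjusted p threshold (limma, Benjamini-Hochberg, 13 and 74 tested), beside 8.46% of all 14411 genes. That background of 1219 genes was 0 genes without the mean-variance trend and 0 of 17130 with no filter on low values. At an unadjusted p under 0.05 there were 0 mitochondrial members and 6 nuclear members, 2 higher and 4 lower in CXCR4+ macrophages, against 1347 higher and 1384 lower genes overall. The lone CXCR4- library was assumed to vary like the CXCR4+ pair. The mitochondrial median difference was 0.08, with 10 of 13 genes above 0 (0.24 with median-ratio scaling, -0.02 per nuclear protein-coding CPM and -0.08 after quantile normalization), and the nuclear median was -0.49, with 22 of 74 above 0, against -0.20 over all genes. Of all 14411 genes, 5951 lay above 0.

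The mitochondrial genes lay close together across the sort. mt-Co1 stood at 3109 and 2693 CPM in CXCR4+ and 2754 CPM in CXCR4- macrophages, and mt-Cytb at 572 and 500.4 CPM in CXCR4+ and 460.4 CPM in CXCR4- macrophages. In both genes the CXCR4- library lay within or close to the CXCR4+ pair. Uqcrb, a small subunit of complex III near the ubiquinone site, came closest to the threshold, with 12.5 and 8.46 CPM in CXCR4+ and 0.387 CPM in CXCR4- macrophages (log2 difference 3.02, SE 1.10, adjusted p = 0.0638 by limma). With median-ratio scaling it passed (3.08, adjusted p = 0.0462 by limma), and over the other settings its adjusted p ran from 0.0551 to 0.280. Next among members of at least 10 CPM came Cox6a1, at 10.5 and 13.1 CPM in CXCR4+ and 4.18 CPM in CXCR4- macrophages, followed by Ndufa9 at 0.99, Ndufa13 at 0.49 and Cox5a at 0.46. On the other side Ndufb3 of complex I stood at 2.78 and 8.16 CPM in CXCR4+ and 21.7 CPM in CXCR4- macrophages (-1.95, SE 0.90). Atp5e, the epsilon subunit of the ATP synthase rotor stalk, stood at 9.27 and 8.64 CPM in CXCR4+ and 31.7 CPM in CXCR4- macrophages. Ndufs4, a complex I subunit whose human mutations cause Leigh syndrome, stood at 5.52 and 8.97 CPM in CXCR4+ and 23.3 CPM in CXCR4- macrophages. Ndufb2 gave -1.63 and Ndufb8 -1.46. For each of the nuclear genes given with levels here the CXCR4- library lay outside the CXCR4+ pair. These genes were picked by this difference, so that this follows in part from the choice.

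By complex, the ratio of mitochondrial to nuclear summed CPM was highest for complex IV in all macrophage libraries but that cultured with both agents, where complex I was highest. It was lowest for complex V in all but repeat 2 of the K8Cre+ control, where complex III was lowest. For complex IV it was 22.1 and 13.7 in the Cxcr4 knockout against 37.2 and 14.4 in its control, and 44.0 and 18.7 in the Cxcl12 knockout against 22.9 and 27.3 in its control. For complex I it was 13.2 and 9.28 in the Cxcr4 knockout against 12.5 and 8.42 in its control, and 20.7 and 9.92 in the Cxcl12 knockout against 18.2 and 15.1 in its control. For complex III it was 3.56 and 2.00 in the Cxcr4 knockout against 3.84 and 1.03 in its control, and 4.23 and 2.07 in the Cxcl12 knockout against 3.80 and 2.63 in its control. For complex V it was 2.21 and 1.33 in the Cxcr4 knockout against 1.29 and 0.983 in its control, and 2.60 and 1.16 in the Cxcl12 knockout against 1.77 and 2.87 in its control. Groups overlapped in every one of these pairs except complex V of the Cxcr4 knockout, where both knockout libraries lay above both controls. These ratios set summed CPM of different numbers of genes against each other and do not count proteins.

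**Figure D5:**
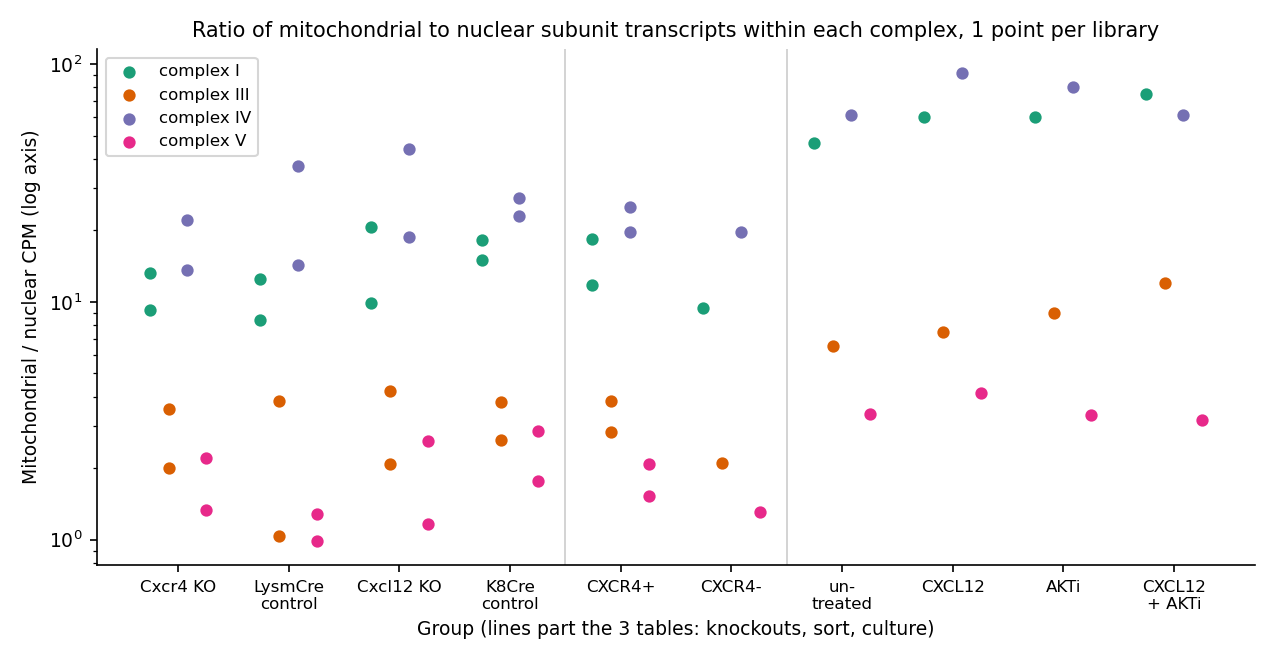
Ratio of mitochondrial to nuclear summed CPM within complexes I, III, IV and V, on a log axis, with 1 point per macrophage library. Complex IV reached 92.0 in the CXCL12-treated culture, and complex V lay between 0.983 and 4.14 throughout.

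CXCL12 and the AKT inhibitor GSK690693 were each given alone or together to cultured macrophages, which addresses what the ligand does with and without AKT activity. There was 1 library per condition, and these values are given without a test. The log2 ratio of mitochondrial to nuclear summed CPM was 0.27 above the untreated library with CXCL12 (counting interval 0.25 to 0.29), 0.40 above it with the inhibitor (0.37 to 0.42) and 0.41 above it with both (0.39 to 0.44). The 95% intervals cover counting error only. With both agents it differed by 0.02 from the inhibitor alone (-0.01 to 0.05). The SD between freshly sorted repeats on this scale was 0.14 to 0.72, so that these differences are within the range of that spread.

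All 13 mitochondrial genes were higher than untreated with CXCL12 (log2 ratios of 0.06 to 0.62) and with the inhibitor (0.04 to 0.97), and 10 were with both (-0.73 to 0.57). The 3 that lay below untreated with both agents, mt-Nd4l, mt-Co3 and mt-Atp6, have a chromosome 1 copy, and with the copy added to its gene all 13 lay above untreated in each comparison (0.19 to 0.62 with both). None was 2-fold apart in any of these comparisons. Of all genes that reached 10 CPM, 4642 of 9678 lay above untreated with CXCL12. With the inhibitor 5353 of 10158 did, and with both agents 5153 of 10161. mt-Co1 stood at 4127 CPM untreated, 6011 CPM with CXCL12, 6699 CPM with the inhibitor and 6136 CPM with both. mt-Nd4 stood at 1938, 2434, 3049 and 2629.6 CPM in the same order. In both genes the untreated library was the lowest. mt-Nd4l stood at 241, 256, 262 and 145 CPM, but together with its copy Gm10222 at 278, 319, 342 and 379 CPM. mt-Co3 stood at 1319.8, 1372, 1412 and 1112 CPM, and together with its copy Gm28437 at 1899, 2558, 2374 and 2224 CPM. With the copies included, the untreated library was the lowest for these genes too.

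Of the nuclear members that reached 10 CPM in the higher library, 6 of 38 (15.8%) were at least 2-fold higher and 7 (18.4%) at least 2-fold lower with CXCL12, against 11.9% and 14.3% of all genes. With the inhibitor 7 of 39 (17.9%) were higher and 11 (28.2%) lower, against 19.9% and 16.4% of all genes. With both agents 9 of 40 (22.5%) were higher and 12 (30.0%) lower, against 22.9% and 25.3% of all genes. Nuclear medians were -0.01, 0.19 and 0.20 for CXCL12, the inhibitor and both, against -0.03, 0.06 and 0.02 over all genes.

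Many of the extreme nuclear values rested on a library near 0, and the levels are given for these. Ndufs3 stood at 13.1 CPM with CXCL12 and 0.0946 CPM untreated, where the level of 3 reads is 0.142 CPM. The complex I subunit Ndufb11 stood at 10.5 CPM with CXCL12, 21.7 CPM with both and 0.757 CPM untreated. Uqcrq, a small complex III subunit, was the one gene among the 5 highest in all 3 comparisons: it stood at 2.79 CPM untreated, 11.0 CPM with CXCL12, 31.2 CPM with the inhibitor and 40.2 CPM with both. Atp5c1, the gamma subunit that turns within ATP synthase, stood at 73.1 CPM with CXCL12 and 24.8 CPM untreated (log2 ratio 1.55), and Atp5e at 27.1 CPM with CXCL12 and 4.82 CPM untreated (2.46). Ndufb10, a complex I membrane-arm subunit, was among the 5 lowest in all 3, with 23.8 CPM untreated, 5.85 CPM with CXCL12, 1.47 CPM with the inhibitor and 0 CPM with both.

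The inhibitor library listed the succinate dehydrogenase iron-sulphur subunit Sdhb at 0 CPM against 15.6 CPM untreated, yet with both agents it stood at 28.5 CPM. Ndufab1 stood at 34.5 CPM untreated, 13.6 CPM with CXCL12, 0.0698 CPM with the inhibitor and 5.74 CPM with both. Cox8a stood at 12.6, 5.20, 4.54 and 0.0624 CPM in the same order. Such values in 1 library each have no replicate check, and jumps of the same kind separated the repeats of the freshly sorted groups. With the inhibitor, Atp5j2 of ATP synthase gave the highest log2 ratio (6.60), at 14.9 CPM against 0.0473 CPM untreated. Also with the inhibitor, Cox5b of complex IV stood at 22.9 CPM against 6.24 CPM untreated (1.85) and Ndufv1, the subunit that binds NADH, at 13.3 CPM against 4.16 CPM (1.65). With both agents, Ndufa12 of complex I gave the highest log2 ratio (6.96), at 19.1 CPM against 0.0473 CPM untreated. Sdhc then stood at 42.0 CPM against 0.426 CPM untreated (6.30) and Ndufa5 at 25.6 CPM against 0.568 CPM (5.25). The untreated values of Atp5j2 and Ndufa12 lay under the level of 3 reads.

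In P4 basal cells the Cxcl12 deletion in luminal cells was read out in their neighbours. The nuclear members summed to 3154 FPKM in the Cxcl12 knockout and 2599 FPKM in the control, and each group had 1 library. In each, 9 of 90 were at 0, against 43.4% of all genes in the knockout and 41.0% in the control. Of the members that reached 10 FPKM, 10 of 63 (15.9%) were at least 2-fold higher and 5 (7.94%) at least 2-fold lower in the knockout, against 7.99% and 5.33% of all genes. The median log2 ratio was 0.32, with 47 above and 16 below 0, against -0.04 over all genes. Of all genes that reached 10 FPKM, 3121 lay above and 3478 below 0. Cxcl12 itself, deleted in luminal cells, stood at 350.0 FPKM in the knockout and 269.9 FPKM in the control of these basal cells. The 5 basal markers (Krt5, Krt14, Acta2, Trp63 and Itgb1) summed to 5873 FPKM in the knockout and 4513 FPKM in the control, and the 4 luminal markers to 454 FPKM in the knockout and 337 FPKM in the control. The 3 fibroblast markers summed to 323 FPKM in the knockout and 198 FPKM in the control, and the 5 macrophage markers listed to 13.8 FPKM in the knockout and 7.86 FPKM in the control. The part of these other cells in the subunit values was not tested.

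The largest P4 ratios were those of Ndufab1, at 22.2 FPKM in the knockout against 3.86 FPKM in the control (log2 ratio 2.25), and of Uqcrq, at 42.6 FPKM in the knockout against 10.1 FPKM in the control (1.97). Uqcr11, the smallest complex III subunit, stood at 17.4 FPKM in the knockout against 3.91 FPKM in the control, Ndufc1 at 54.0 FPKM in the knockout against 14.9 FPKM in the control and Ndufa4 at 114 FPKM in the knockout against 39.8 FPKM in the control. Lower in the knockout stood Ndufb2, listed at 0 in the knockout against 14.7 FPKM in the control, Ndufa3 at 2.44 FPKM in the knockout against 26.7 FPKM in the control and Ndufb6 at 7.33 FPKM in the knockout against 34.5 FPKM in the control. Cox5b (-1.09) and Cox7b (-1.05), both of complex IV, completed the 5 lowest. Atp5b stood at 265 FPKM in the knockout and 260.2 FPKM in the control.

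Several subunits of complex IV exist as tissue isoforms. Cox4i1 stood at 129 and 90.1 CPM in the Cxcr4 knockout and 66.2 and 63.7 CPM in its control, and at 37.6 and 74.5 CPM in the Cxcl12 knockout and 171 and 91.7 CPM in its control. Both Cxcr4 knockout libraries lay above their controls and both Cxcl12 knockout libraries below theirs, with log2 differences of 0.73 (SE 0.69) and -1.23 (SE 0.69) and an interaction of 1.95 (SE 0.98) that did not pass after adjustment. Its hypoxia-associated counterpart Cox4i2 stood at 0 and 0.250 CPM in the Cxcr4 knockout, 0 and 0 CPM in its control, 0 and 2.25 CPM in the Cxcl12 knockout and 0 and 0.107 CPM in its control. The muscle and heart isoforms Cox6a2, Cox7a1 and Cox8b, listed in the P4 table alone, were at 0 there. Cox7a2l stood at 110.0 and 231 CPM in the Cxcr4 knockout and 296 and 195 CPM in its control, and Ndufa4l2, a hypoxia-induced relative of Ndufa4, had a mean of 0.238 CPM over the knockout table.

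Genes that act with the subunits were described by the same fits, and no gene of any of these lists passed the threshold in the knockout contrasts, their difference or the sort. The 39 assembly factors tested had median log2 differences of 0.06 in the Cxcr4 knockout (21 above 0) and 0.14 in the Cxcl12 knockout (22 above 0). The mitochondrial ribosomal proteins, which translate the 13 mitochondrial members, had medians of 0.16 in the Cxcr4 knockout (42 of 75 above 0), 0.48 in the Cxcl12 knockout (49 of 75) and -0.71 in the sort (15 of 64). The enzymes of the tricarboxylic acid cycle, which supply NADH, had medians of 0.21 in the Cxcr4 knockout (7 of 13 above 0), -0.05 in the Cxcl12 knockout (6 of 13) and -0.65 in the sort (2 of 13). Over all genes these medians were 0.14, 0.36 and -0.20. Genes for mitochondrial transcription, RNA processing and translation had medians of 0.18 in the Cxcr4 knockout (21 of 35 above 0) and 1.09 in the Cxcl12 knockout (23 of 35), the second made of 1.75 in repeat 1 and -0.14 in repeat 2. Electron carriers and ubiquinone synthesis genes had medians of 0.10 in the Cxcr4 knockout and 0.60 in the Cxcl12 knockout (8 of 12 above 0 in each). The regulators of mitochondrial biogenesis had medians of -0.14 in the Cxcr4 knockout and -0.01 in the Cxcl12 knockout. Among them the coactivator Pprc1 gave the largest difference in the Cxcr4 knockout (4.39, SE 1.21, adjusted p = 0.649 by limma).

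In culture the same lists had no replicate check. Of the mitochondrial ribosomal proteins that reached 10 CPM, 12 of 30 were at least 2-fold higher and 9 lower with CXCL12, 9 and 6 of 28 with the inhibitor, and 17 and 11 of 33 with both. Over all genes at that level the shares higher and lower were 11.9% and 14.3% with CXCL12, 19.9% and 16.4% with the inhibitor, and 22.9% and 25.3% with both. Of the tricarboxylic acid cycle enzymes, 1 of 11 was higher and 1 lower with CXCL12, 0 and 3 with the inhibitor, and 1 and 3 with both, beside the same shares of all genes.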

How the data were processed

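Total RNA was depleted of ribosomal RNA and made into libraries with the PrepX protocol, per the labels' protocols. The submitters' processing notes name STAR 2.7.8a, Partek and hg38, a human build, although the genes are mouse symbols; which table each was used for is not given in the sources used here. The authors deposited macrophage values as log2(CPM + 0.0001) and P4 values as FPKM. CPM were recovered by inverting the log2 values, and the most frequent low value of a library was taken as 1 read. Of the low values alone, 74.4% to 90.6% came to whole multiples of 1 read (within 0.05 reads). The rest of these were fractional, so no count test was used.

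limma 3.58.1 (R 4.3.3) was fitted to log2(CPM + 1) over all genes that reached 1 CPM in 2 or more libraries. A trend and Benjamini-Hochberg adjustment at 0.05 were used. There was 1 fit of the 8 knockout libraries (4 residual degrees of freedom, prior 97.3) and 1 of the 3 sort libraries (1 residual degree of freedom, infinite prior). With an infinite prior the spread of each gene is taken from the trend over genes alone. Culture and P4 comparisons had 1 library a group: before log2 ratios were taken, 0.107 CPM (the worth of 2 reads at average depth) or 1 FPKM was added to each value; genes whose higher value reached 10 were counted past 2-fold. Mitochondrial members were not analysed in P4 cells, so no P4 ratio was made. Copies were found with blastn 2.17.0+ among GENCODE M21 transcripts (at least 95% identity over 100 bases and 50% of the copy), and coordinates are those of GRCm38. The tables' start positions matched that annotation in the knockout and sort tables. Of 111 members, 106 had a transcript. Tables were handled in Python 3.11.15 with pandas 2.3.3, numpy 2.4.6 and matplotlib 3.10.9. The P4 table had 429 rows without a gene name, left out.

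Named were all mitochondrial members, the top 2 nuclear members per complex, up to 5 highest and 5 lowest of at least 10 CPM or FPKM in each comparison, called members and isoform groups, except for an item that is not reported here. The members and lists were chosen with earlier results of these data known. Alternatives varied scaling, pseudocount, filter, members, libraries and repeats. Other sample columns used: none.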

Additional observations from a re-analysis of the deposited data

Results flagged for a closer look

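In culture, adding CXCL12 moved the set sums in opposite directions without and with the AKT inhibitor, in 1 library each, and the difference was not tested. The log2 ratio of the mitochondrial sum was 0.377 for CXCL12 against untreated and -0.0997 for CXCL12 plus inhibitor against inhibitor alone. The nuclear sum gave 0.105 and -0.116 in the same order. Of the 13 mitochondrial genes, 11 lay above 0 without and below 0 with the inhibitor. The exceptions were mt-Cytb (0.38 and 0.05) and mt-Nd3 (0.23 and 0.25), above 0 in either setting. With the chromosome 1 copies added to their genes, 9 genes did so, since mt-Co2 (-0.01 alone, 0.09 with its copy) and mt-Nd4l (-0.85 alone, 0.15 with its copy) lay above 0 with the inhibitor. The copy's share of mt-Nd4l was 61.8% with CXCL12 plus inhibitor and 23.4% with inhibitor alone. The mitochondrial sum with its listed copies was 3.60% of CPM with CXCL12 plus inhibitor against 3.72% with inhibitor alone, and 3.48% with CXCL12 against 2.61% untreated. Of all genes that reached 10 CPM, 4642 of 9678 lay above 0 without the inhibitor and 5327 of 10408 lay below 0 with it. How many genes did both was not counted. The comparisons share no library, and each rests on 1 library per side.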

How the results depend on the processing

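No member was called in any of the 4 limma contrasts under the alternative scalings, pseudocount, filters and trend settings, with 1 exception. That was Uqcrb in the sort with median-ratio scaling (1 member, 3.08, adjusted p = 0.0462). Without one library at a time, 0 to 1 members were called in the Cxcr4 knockout, the 1 being Ndufs1 without repeat 2 of the LysmCre+ control, and 0 in the Cxcl12 knockout and in the difference. Median-ratio scaling changed the median over all genes to -0.06 in the sort (-0.20 as reported) and to 0.21 in the Cxcl12 knockout (0.36 as reported). The Cxcr4 knockout log2 ratio of the sets (0.35) was -0.02 as a difference of mean log2 values. The Cxcl12 knockout ratio (-0.17) was -0.76 as a difference of mean log2 values, 0.43 within repeat 1 and -0.78 within repeat 2. Without one library it ranged from -0.68 to 0.33, the Cxcr4 knockout ratio from -0.05 to 0.76 and the sort ratio from 0.19 to 0.61. Without each library in turn, 1 of 13 mitochondrial members kept its sign in each of the knockout contrasts and their difference, and 39, 45 and 43 of 82 nuclear members did. In culture, structural subunits only gave ratios of 0.24 (CXCL12), 0.36 (inhibitor) and 0.38 (both), and the difference of mean log2 values gave 0.061, 0.49 and 0.72. Some alternatives were chosen after seeing the data. With the nuclear copies added the ratio was 0.31 for CXCL12 and 0.48 for both agents, and with the mitochondrial genes without a chromosome 1 copy it was 0.47 for the inhibitor and 0.50 for both. At a minimum level of 1 CPM or FPKM, 40, 40 and 44 members were 2-fold apart with CXCL12, the inhibitor and both (13, 18 and 21 as reported), and 23 in P4 cells (15 as reported). The other changes to these results stayed within the spread or 1.5 times the count. With the replicate block, 0 members were called in either knockout contrast and the ratio differences were 0.35 and -0.17. Same-numbered repeats had correlated deviations of 0.057 to 0.139 with 2 pairs per contrast, and no label says that a number marks a shared animal or day, so that the numbers were not taken as pairs; repeat 1 was the shallower library with less small non-coding RNA in all 4 groups. The sort counts without one library could not be fitted (no residual degrees of freedom), and the P4 ratio was not made. Depth limits the members near 3 reads, and 2 libraries per group limit every test.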

Other observations

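mt-Nd4 and its copy Gm28439 are identical over the 876 bases of the copy, and the copy's median share was 36.3% in the knockout table, 32% in the sort table and 0.2% in culture. For mt-Nd3, whose copy has 1 mismatch, the medians were 49.6%, 37.3% and 1.4% in the same order. The summed level of the mitochondrial ribosomal RNAs mt-Rnr1 and mt-Rnr2, which are no members, was 7.8 to 79 CPM in the freshly sorted libraries and 402 to 1139 CPM in culture. Across 84 nuclear members of the knockout table with a transcript, length of joined exons and mean log2 CPM had a Spearman correlation of 0.338. It is given as a description over genes.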
